A study of Rattus norvegicus with 3 samples.

Results

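The genes described here encode the clathrin coat, the adaptors that join it to cargo and membrane, and the proteins that pinch off and uncoat the vesicle. They were taken by symbol from the deposited gene table: clathrin chains, subunits of the adaptor complexes AP-1 to AP-5, GGA adaptors, pit initiators and cargo adaptors, dynamins and their membrane-bending partners, and uncoating factors and kinases. The rule found 66 of the 16516 genes in the table, and no measured value entered it. One of them, Synj2bp, a mitochondrial outer membrane protein gene, was matched by the letters of its symbol only. Ap1g1, Ap5z1 and Cltcl1 were not among the 16516 genes under these symbols and so were not analysed here. The AP-1 counts below thus lack the gamma subunit gene Ap1g1.

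RNA was sequenced at 3 points of ameloblast life in 5 Wistar Hannover rats: in cells of the cervical loop, where the epithelium renews itself, and in ameloblasts of the secretory and of the maturation stage. The labels name no allele, treatment, age or sex. The 3 groups share the strain and are labelled by stage, and whether they were handled alike is not stated. The cells were dissected from enamel organs and no sort is named, so each group can hold other cells of the enamel organ and nearby tissue. The library of 1 rat's cervical loop was left out by the submitters for an RNA integrity number under 7. The files give 1 mean per gene and stage and no value per library, so no spread stands beside a mean, and replicate error enters only through the p-values of the authors' deposited table. The stages were taken from the same rats, and the sources used here do not say whether that test paired them by rat.

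Clathrin heavy and light chains form three-legged units that assemble into a cage around a budding vesicle. Adaptor complexes choose the membrane: AP-2 works at the cell surface, while AP-1 and the GGA proteins work at the trans-Golgi network and endosomes. Dynamin, a GTPase, cuts the neck of the bud, and synaptojanin and auxilin then help to strip the coat. Secretory ameloblasts export enamel matrix proteins, and maturation ameloblasts take up the fragments of that matrix by endocytosis while mineral fills the space.

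A gene is said to have risen, fallen or passed where the false discovery rate (FDR) for a pair of stages was under 0.05 after adjustment over all 16516 genes. Folds are ratios of the authors' least-squares means, whose unit is not stated, so levels are compared between stages of a gene and never between genes. Stage means are given throughout in the order cervical loop, secretory, maturation. In dissected tissue, fewer cells of a type and less RNA per cell cannot be told apart.

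The labelled stages were checked against marker genes. The matrix gene Ambn had means of 1306, 61048 and 5251, and the maturation gene Odam had means of 29.3, 127 and 3159. All 8 cell cycle genes fell from the cervical loop to the secretory stage, and their summed mean went from 643 to 86.8 and was 77.7 in maturation. Markers of other cells were present in every stage. The 10 mesenchymal genes summed to 11190, 11369 and 15464, with 4 higher and 0 lower in maturation than in secretory cells. The 11 measured macrophage genes summed to 260, 220 and 726, with 9 of 11 higher in maturation than in secretory cells. The 8 measured endothelial genes summed to 189, 255 and 374, and 7 of 8 were higher in maturation than in the cervical loop. The 8 muscle genes summed to 4.94, 8.34 and 138, with none passing in any pair, and the 7 odontoblast and bone genes summed to 481, 245 and 336. The 6 stratum intermedium genes summed to 804, 1114 and 1108, with 2 higher and 1 lower in maturation than in the cervical loop. The 3 measured erythroid genes summed to 389, 403 and 537. A mean at or below 0.1 was found for Mb of the muscle list in the cervical loop and for Dspp of the odontoblast and bone list in maturation, and for none of the macrophage, endothelial, mesenchymal or nerve and Schwann genes. Their part in the results below was not tested.

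More of the machinery genes rose from the cervical loop to either later stage, and fewer fell, than among all genes. From the cervical loop to the secretory stage 28 of the 66 genes (42.4%) rose, against 16.5% of all genes tested, and 8 (12.1%) fell, against 25.2%. From the cervical loop to maturation 30 (45.5%) rose, against 24.1%, and 10 (15.2%) fell, against 33.7%. Between secretory and maturation cells the set was closer to the background: 21 (31.8%) rose, against 21.8%, and 13 (19.7%) fell, against 21.1%. These comparisons share their stages and are not independent of each other.

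The median log2 ratio of the set was 0.14 for secretory against cervical loop, where the median of all genes was -0.14. For maturation against secretory it was 0.02, beside 0.01 for all genes. For maturation against cervical loop it was 0.18, beside -0.12 for all genes. Relative to the median of all genes, the medians against the cervical loop were 0.28 and 0.29.

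Across the 3 stages together 48 of the 66 genes (72.7%) passed the authors' test for any difference, near the 67.2% of all genes. Those that passed differed from the background in where they peaked. Maturation held the highest mean of 23 of the 66 (34.8%, against 22.2% of all genes), and the secretory stage that of 16 (24.2%, against 15.1%). The cervical loop held the highest mean of 9 (13.6%, against 30.0% of all genes). Of the 28 that rose in secretory cells against the cervical loop, 18 did so by at least 1.5-fold. Of the 13 that fell from secretory to maturation cells, 4 did. The same shares among all genes are not given, so these counts do not set the clathrin machinery apart.

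**Figure D1:**
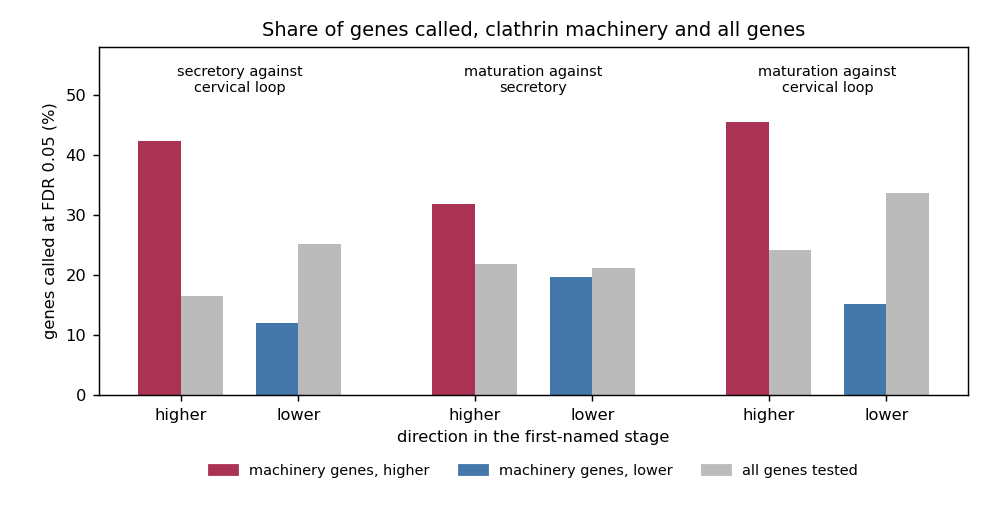
Percent of genes that rose or fell (FDR under 0.05) in each pair of stages, for the clathrin machinery genes (coloured) and for all genes tested (grey); bars start at 0 and no error bar applies to a count. The machinery bar for higher genes in secretory against cervical loop stands at 42.4%, beside 16.5% for all genes.

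**Figure D2:**
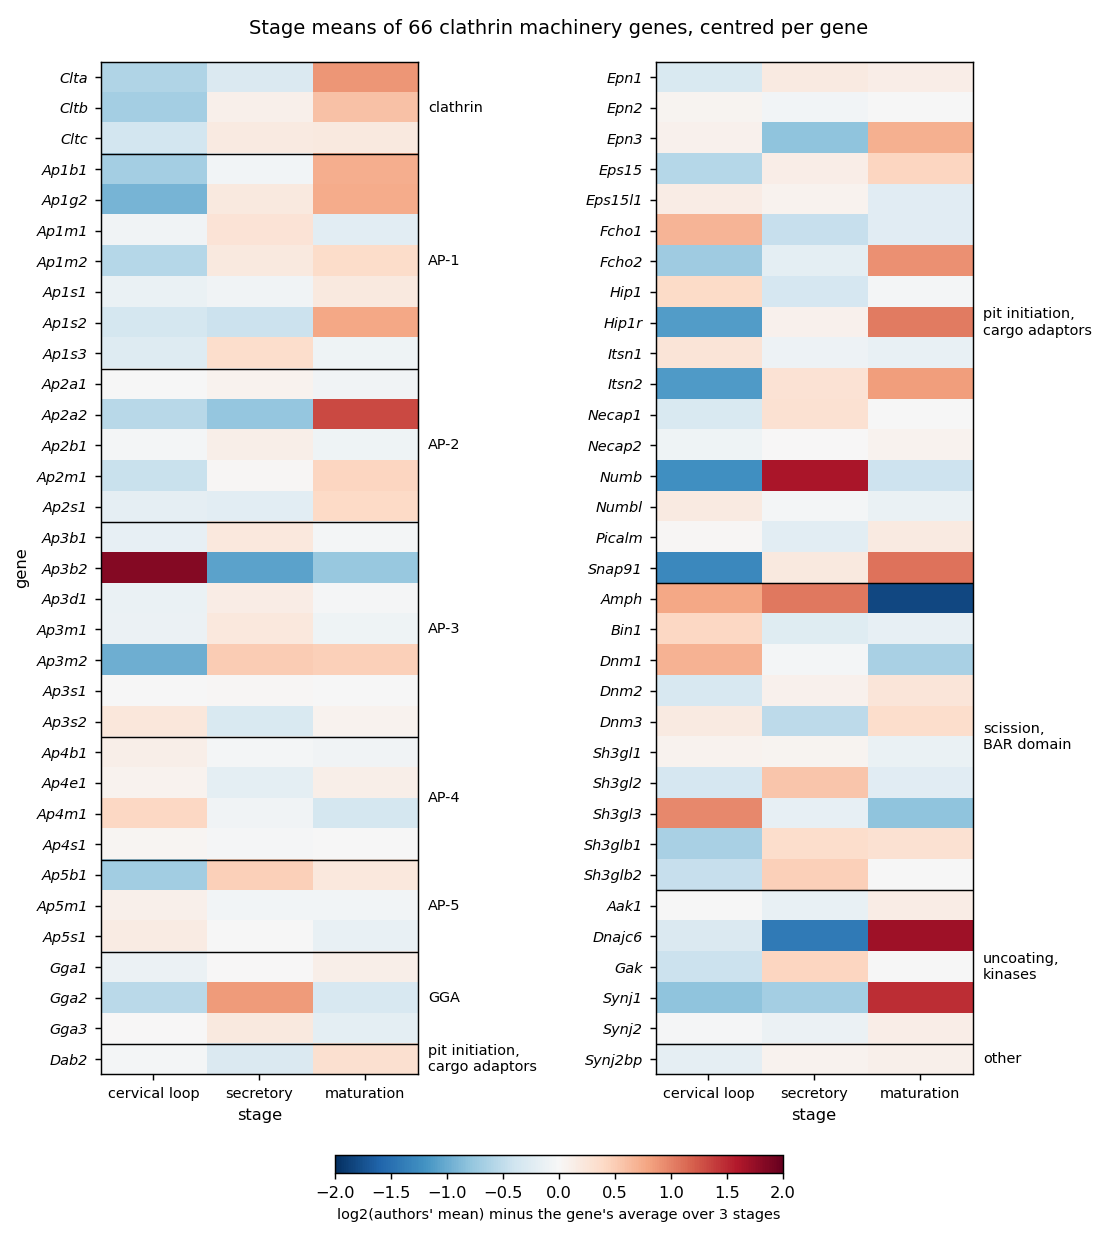
Log2 of each gene's mean over its own mean of log2 values in the 3 stages, for the 66 genes ordered by role; means under 0.1 are set to 0.1 before the log and colour saturates at 2 log2 units either way. The maturation column is warmest at Dnajc6, Synj1, Ap2a2 and Snap91, and the secretory column at Numb, Amph and Gga2.

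All 3 clathrin chains rose from the cervical loop to maturation, and the step that passed differed by gene. The heavy chain gene Cltc, the leg of the cage unit, had means of 299, 436 and 442. It rose 1.46-fold into the secretory stage and did not pass between secretory and maturation (FDR = 0.00164 and FDR = 0.859 in the authors' deposited table). The light chain gene Clta, a regulatory chain bound to the heavy chain, had means of 39.3, 48.5 and 110. Its rise came later, 2.26-fold from secretory to maturation cells (FDR = 0.000617 in the authors' deposited table), with no pass at the earlier step (FDR = 0.0690 in the same table of the authors). The other light chain gene, Cltb, had means of 5.77, 9.94 and 13.8. Cltb rose 1.72-fold into the secretory stage and 2.40-fold from the cervical loop to maturation. From secretory to maturation cells Cltb was 1.39-fold higher without a pass (FDR = 0.0833 in the authors' deposited table). Of the steps between neighbouring stages, Cltc and Cltb thus passed at the first and Clta at the second. The difference between the steps was not tested.

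AP-2, the adaptor of the cell surface, changed by subunit. The large alpha subunit gene Ap2a2, whose protein binds the membrane lipid PIP2 and cargo, had means of 66.6, 56.9 and 244. It was 1.17-fold lower in secretory cells than in the cervical loop and then rose 4.28-fold into maturation (FDR = 0.0361 and FDR = 6.11e-05 in the authors' deposited table). The other alpha subunit gene, Ap2a1, had means of 25.7, 27.2 and 24.4 and passed in no pair. The increase was thus seen in one alpha subunit gene, and the difference between the pair was not tested.

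The remaining AP-2 subunits moved less. Ap2m1, the mu subunit that reads tyrosine-based sorting signals, had means of 97.8, 136 and 179 and rose at each step, by 1.39-fold and then 1.32-fold. Ap2s1, the small subunit that reads dileucine signals, had means of 29.2, 28.4 and 43.6 and rose 1.53-fold from secretory to maturation. Ap2b1, the beta subunit that binds clathrin, had means of 69.7, 77.6 and 67.6. Ap2b1 passed at each step with folds of 1.11 higher and then 1.15 lower, the smallest range among the AP-2 genes that passed.

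In AP-1, the adaptor of the trans-Golgi network and endosomes, 5 of 7 genes rose into the secretory stage, against 16.5% of all genes. Likewise 5 of 7 were higher in maturation than in the cervical loop, against 24.1% of all genes. Ap1b1, its beta subunit, had means of 28.2, 43.3 and 74.9 and rose at each step (1.53-fold and 1.73-fold). Ap1g2, a gamma subunit, had means of 5.83, 12.7 and 18.6 and was 3.19-fold higher in maturation than in the cervical loop (FDR = 9.96e-05 in the authors' deposited table). Ap1s2, a small subunit, had means of 6.01, 5.70 and 13.05, so its 2.29-fold rise came between secretory and maturation cells. These 3 genes peaked in maturation.

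AP-1 has alternative mu subunits, and the difference between their genes was not tested. Ap1m1, present in most tissues, had means of 19.6, 25.0 and 17.9, and rose 1.27-fold and then fell by a factor of 1.39. Ap1m2, the epithelial form, had means of 6.74, 11.5 and 12.95 and rose 1.70-fold into the secretory stage, with no pass after it. Among the other small subunits, Ap1s1 had means of 15.9, 16.6 and 20.0 and passed only between maturation and cervical loop, 1.26-fold higher. Ap1s3 had means of 4.94, 7.51 and 5.54 and passed only between secretory and cervical loop, 1.52-fold higher.

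AP-3 carries cargo from endosomes toward lysosomes and related organelles. Of its 7 genes, 0 passed the test for any difference with the highest mean in maturation, where 22.2% of all genes did. The count was also 0 among the AP-4, AP-5 and GGA genes, so it does not set AP-3 apart. Ap3m2, a mu subunit known best from neurons, had means of 4.13, 11.6 and 11.3 and rose 2.81-fold into the secretory stage (FDR = 0.000597 in the authors' deposited table). The beta subunit gene Ap3b1 had means of 51.0, 65.8 and 55.5, and the delta subunit gene Ap3d1 had means of 56.8, 69.2 and 60.9. Both passed at each step, up into the secretory stage by 1.29-fold and 1.22-fold and down into maturation by 1.19-fold and 1.13-fold. The small subunit gene Ap3s2 went the other way, with means of 14.8, 10.3 and 13.3. The beta subunit gene of neurons, Ap3b2, had means of 0.747, 0.0717 and 0.123. It was lower in both later stages than in the cervical loop, and no fold is given against its secretory mean, which was under 0.1. Ap3m1 and Ap3s1 passed in no pair.

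Among the AP-4, AP-5 and GGA genes, Gga2 and Ap5b1 rose by more than 2-fold into the secretory stage. Gga2, a monomeric adaptor that sorts mannose 6-phosphate receptors out of the trans-Golgi network, had means of 48.9, 128 and 56.8. Gga2 rose 2.61-fold into the secretory stage and fell by a factor of 2.25 after it (FDR = 0.00148 and FDR = 0.00226 in the authors' deposited table). Its maturation mean was 1.16-fold above the cervical loop and did not pass (FDR = 0.136 in the authors' deposited table). Gga2 thus passed as higher in the secretory stage than in each other stage. Gga1 had means of 13.97, 15.2 and 16.4 and was 1.17-fold higher in maturation than in the cervical loop. Gga3 had means of 13.7, 15.6 and 11.9 and was lowest in maturation. In AP-5, an adaptor of late endosomes that works without clathrin, the beta subunit gene Ap5b1 had means of 4.36, 9.91 and 8.23 and rose 2.27-fold into the secretory stage. In AP-4, a trans-Golgi adaptor that also works without clathrin, Ap4m1 had means of 6.70, 4.75 and 3.95 and was 1.70-fold lower in maturation than in the cervical loop. Ap4b1, Ap4e1, Ap4s1, Ap5m1 and Ap5s1 passed in no pair.

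Of the 18 genes for pit initiation and cargo choice, 8 rose and 2 fell into the secretory stage, where 16.5% of all genes rose and 25.2% fell. From secretory to maturation 9 rose and 3 fell, where 21.8% of all genes rose and 21.1% fell. Numb, an endocytic adaptor also known for its part in Notch signalling and asymmetric division, had means of 13.9, 100 and 24.4. Numb rose 7.22-fold into the secretory stage and then fell by a factor of 4.11 (FDR = 0.000519 and FDR = 0.000793 in the authors' deposited table). In maturation it was still 1.76-fold above the cervical loop. Its relative Numbl had means of 15.5, 13.4 and 12.4 and passed in no pair.

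A group of pit genes climbed at both steps. Snap91, the AP180 adaptor that sets clathrin cage size and is known best from synapses, had means of 23.4, 65.3 and 122, a rise of 5.20-fold from cervical loop to maturation (FDR = 0.000348 in the authors' deposited table). Hip1r, which links the coat to actin, had means of 11.98, 27.5 and 53.4, and was 4.46-fold higher in maturation than in the cervical loop (FDR = 0.000121 in the authors' deposited table). Itsn2, an intersectin scaffold that gathers coat and actin regulators, had means of 35.8, 95.9 and 140, a rise of 3.90-fold (FDR = 7.91e-05 in the authors' deposited table). These 3 genes passed upward in each pair of stages.

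Early scaffold genes did so as well. Fcho2, a membrane-bending protein present at the start of a pit, had means of 21.3, 30.5 and 65.7 and rose 1.43-fold and then 2.16-fold. Eps15, a scaffold that binds AP-2, had means of 37.1, 60.4 and 74.6 and rose 1.63-fold and then 1.23-fold. Close relatives of these genes gave other values. Eps15l1 had means of 26.6, 25.4 and 20.7 and was 1.29-fold lower in maturation than in the cervical loop, and Fcho1 was under 1 in every stage and passed in none. Itsn1 had means of 25.2, 19.8 and 19.1 and was 1.32-fold lower in maturation than in the cervical loop. Hip1, with means of 43.3, 26.4 and 32.6, fell by a factor of 1.64 into the secretory stage and then rose 1.23-fold.

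Other pit genes gave smaller or mixed changes. Picalm, a relative of Snap91 found in most tissues, had means of 82.2, 70.4 and 92.4 and passed only from secretory to maturation, 1.31-fold higher. Dab2, an adaptor for receptors of the LDL receptor family that macrophages also express, had means of 25.4, 21.3 and 32.6 and also passed at that step only, 1.53-fold higher. The macrophage sum given above moved in the same direction, and its part in this value was not tested. Of the epsins, which bend membrane and bind ubiquitinated cargo, Epn1 had means of 29.9, 41.9 and 40.4 and rose 1.40-fold into the secretory stage. Epn3 had means of 2.15, 1.16 and 3.33 and fell by a factor of 1.86 before it rose 2.87-fold. Necap1, a partner of AP-2, had means of 12.8, 19.7 and 15.9 and was highest in the secretory stage. Epn2 and Necap2 passed in no pair.

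The 10 scission genes showed no common direction. Among the dynamins, Dnm2, the form of most tissues, had means of 38.6, 51.2 and 57.1 and rose 1.33-fold into the secretory stage (FDR = 0.0243 in the authors' deposited table). Dnm1, the form known from neurons, had means of 23.4, 13.9 and 9.14 and was 2.57-fold lower in maturation than in the cervical loop (FDR = 0.00660 in the authors' deposited table). Dnm3 had means of 3.92, 2.41 and 4.45, with a fall into the secretory stage and a 1.85-fold rise after it. The endophilin-related genes Sh3glb1 and Sh3glb2, whose proteins bend membrane, went up into the secretory stage. Sh3glb1 had means of 42.8, 86.0 and 82.9 and rose 2.01-fold, and Sh3glb2 had means of 7.87, 15.2 and 10.8 and rose 1.93-fold.

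The endophilins proper differed by gene. Sh3gl2 had means of 1.78, 3.32 and 1.93, highest in the secretory stage, with a pass at each step. Sh3gl3 had means of 1.31, 0.597 and 0.385 and was 3.39-fold lower in maturation than in the cervical loop. Sh3gl1 passed in no pair. The amphiphysin genes, whose proteins bring dynamin to the bud neck, fell at different steps. Bin1 had means of 15.4, 9.76 and 10.3 and fell by a factor of 1.57 into the secretory stage, with no pass after it. In maturation Bin1 was 1.5-fold lower than in the cervical loop. Amph had means of 0.781, 0.942 and 0.129, under 1 in every stage, and passed as lower in maturation against each other stage.

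Uncoating genes held some of the strongest maturation changes. Dnajc6, which encodes auxilin, the partner of the Hsc70 chaperone in coat removal, had means of 2.84, 1.31 and 11.3. It fell by a factor of 2.17 into the secretory stage and rose 8.61-fold into maturation (FDR = 0.0455 and FDR = 0.00102 in the authors' deposited table). Gak, the auxilin found in most tissues, went the other way at each step, with means of 33.2, 59.8 and 44.3. Gak rose 1.80-fold and then fell by a factor of 1.35 (FDR = 0.000695 and FDR = 0.00371 in the authors' deposited table).

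Synj1, the lipid phosphatase synaptojanin that removes PIP2 as the coat comes off, had means of 21.2, 23.3 and 104. It did not pass between cervical loop and secretory cells and rose 4.45-fold into maturation (FDR = 0.600 and FDR = 0.000375 in the authors' deposited table). Synj2 had means of 6.44, 6.03 and 7.18 and passed in no pair. Aak1, a kinase that acts on the AP-2 mu subunit, had means of 19.1, 17.4 and 21.5 and rose 1.23-fold from secretory to maturation. Synj2bp had means of 36.3, 43.3 and 44.0, and both later stages were 1.19-fold and 1.21-fold above the cervical loop.

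Snap91, Synj1, Dnajc6, Dnm1, Amph, Sh3gl2 and Ap3b2 are known mainly from neurons, so nerve markers are given beside them. The 10 nerve and Schwann genes summed to 205, 137 and 88.7, with 3 higher and 2 lower in maturation than in secretory cells. Snap25 had means of 0.169, 1.07 and 9.35, while Syn1 had means of 1.66, 1.01 and 0.701 and Syt1 had means of 0.682, 0.188 and 0.246. Tubb3 had means of 38.3, 38.9 and 3.19. The median log2 ratio of the 10 genes for maturation against secretory cells was 0.35, while their sum went down. The part of nerve tissue in the values of these clathrin machinery genes was not tested.

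**Figure D3:**
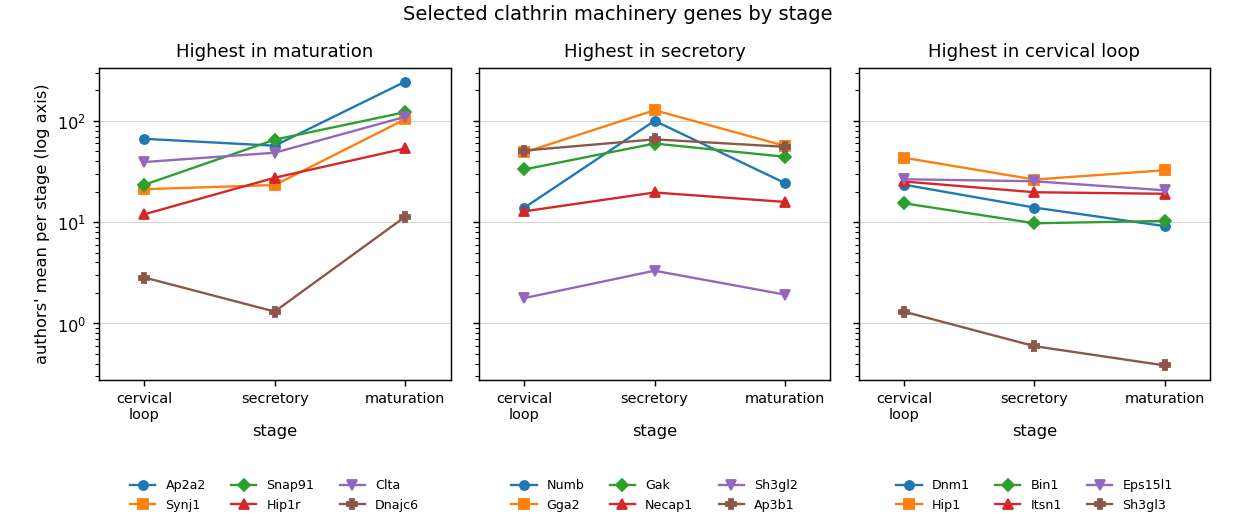
Authors' mean per stage (log axis, unit not stated, no error bar because 1 mean per stage was deposited) for 18 of the genes, in panels by the stage of the highest mean. Ap2a2 and Synj1 step up between secretory and maturation, Numb and Gga2 peak in the secretory stage, and Dnm1 declines.

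The 14 genes that passed in no pair were Ap2a1, Ap3m1, Ap3s1, Ap4b1, Ap4e1, Ap4s1, Ap5m1, Ap5s1, Epn2, Fcho1, Necap2, Numbl, Sh3gl1 and Synj2. The largest ratio among them was 2.20-fold, for Fcho1 between cervical loop and secretory cells, at means of 0.609 and 0.277. The other 52 passed in at least 1 pair. Of the 66, 63 had a mean of 1 or more in some stage, and 44.4% of those rose into the secretory stage, against 18.5% of the 14181 genes with such a mean.

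The balance within several pairs of related genes shifted between stages. It is described here as the ratio of a gene to its relative, set to 1 in the cervical loop, with no test. Pairs named here were picked after their values were seen. The ratio of Hip1r to Hip1 was 3.77 in secretory and 5.93 in maturation cells. For Itsn2 over Itsn1 it was 3.42 and 5.16, and for Snap91 over Picalm 3.25 and 4.63. In these 3 pairs the gain was in place by the secretory stage and larger in maturation.

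A pair of ratios moved mainly between secretory and maturation cells. Synj1 over Synj2 stood at 1.17 and then 4.39, and Ap2a2 over Ap2a1 at 0.809 and then 3.85. Other ratios moved at both steps. Dnajc6 over Gak went down to 0.256 before it reached 2.97, a change of 11.6-fold between secretory and maturation cells. Numb over Numbl was 8.37 in the secretory stage and 2.19 in maturation, and Gga2 over Gga1 was 2.41 and then 0.990, back at the level of the cervical loop. Dnm2 over Dnm1 was 2.23 and then 3.80. Of 22 pairs with a value, 11 differed by 2-fold or more from the cervical loop in secretory cells and 12 in maturation.

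**Figure D4:**
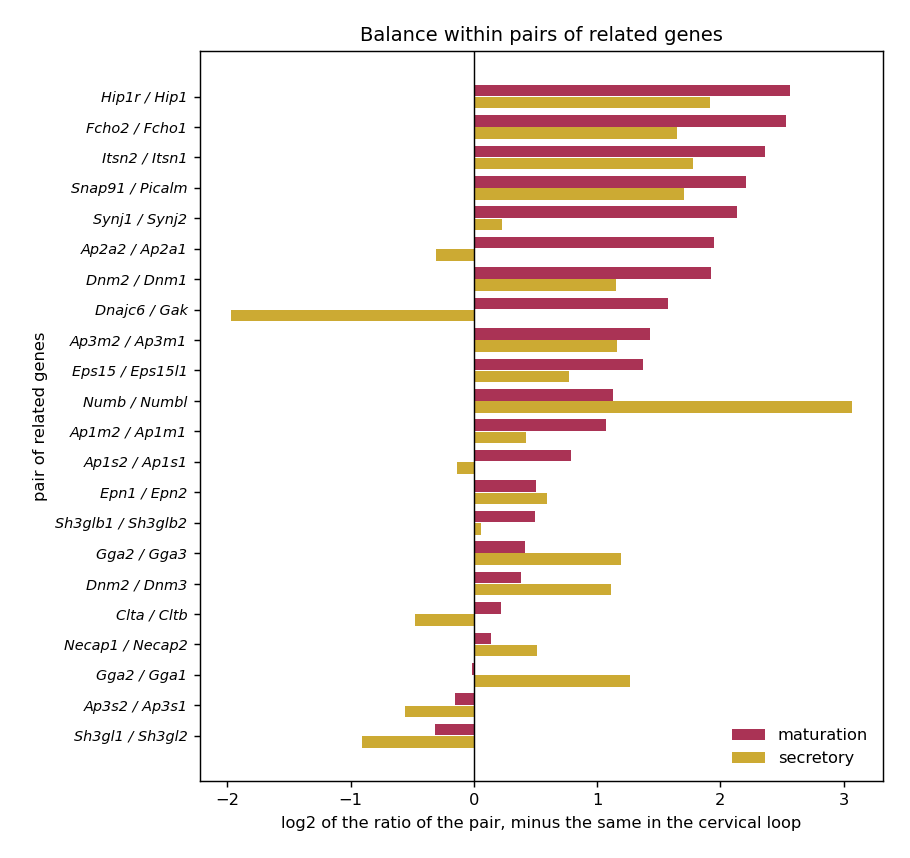
Ratio of a gene to its relative in secretory and maturation cells, relative to the same ratio in the cervical loop (log2 axis, 0 means no change), from 1 authors' mean per gene and stage and so without error bars. Hip1r over Hip1 lies farthest right in maturation at 5.93-fold, and Numb over Numbl farthest right in secretory cells at 8.37-fold.

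Transcript tables covered 64 transcripts of 26 of the genes. From cervical loop to secretory cells 5 transcripts rose and 2 fell, where 16.0% of all transcripts passed. From secretory to maturation 9 rose and 5 fell, against 17.0%, and from cervical loop to maturation 14 rose and 6 fell, against 25.1%. All deposited transcripts of Synj1, Ap2a2 and Dnajc6 rose into maturation from either earlier stage. Dnm1 had 2 transcripts, and both were lower in maturation than in the cervical loop. Epn2-201 fell from 4.57 to 2.22 over the same span, although its gene passed in no pair.

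Numb transcripts showed a change in make-up as well as in level. Numb-203 fell from 17.9 in secretory to 1.09 in maturation cells, by a factor of 16.4. Its FDR was 1.20e-07, adjusted here from the authors' deposited p-values. Numb-202 fell from 43.7 to 9.60, and Numb-201 from 38.5 to 14.0, by a factor of 2.75. As a share of the summed transcript means, Numb-203 went from 17.9% to 4.41% and Numb-201 from 38.5% to 56.7%. Numb was the 1 gene of the 26 to pass the test of make-up between these stages, where 1.80% of all genes passed. Its FDR for make-up was 0.00793, adjusted here from the authors' deposited p-values.

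Dnm3 changed in make-up between cervical loop and maturation, the 1 gene of the 26 to pass there, where 2.79% of all genes passed. Its FDR for make-up was 0.0203, adjusted here from the authors' deposited p-values. Dnm3-202 fell from 2.16 to 0.878, while Dnm3-201 rose from 1.75 to 3.65. The share of Dnm3-201 went from 44.8% to 80.6%. Between cervical loop and secretory cells 0 of the 26 passed after the same adjustment, where 1.19% of all genes did. Of the 26, 4 had an unadjusted p under 0.05 for make-up: Dnm3, Epn2, Numb and Sh3gl3. No other tool was run on these p-values.

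**Figure D5:**
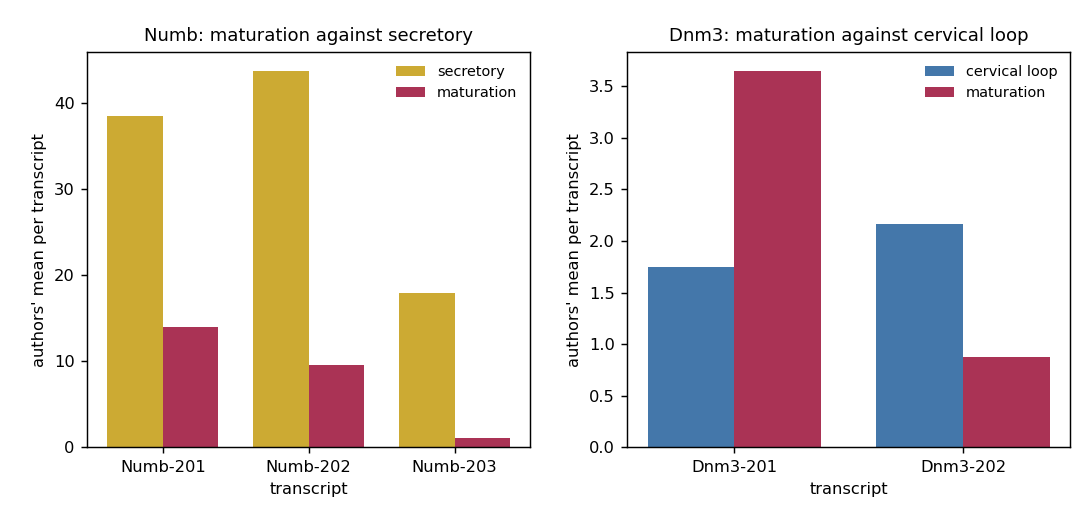
Bars from 0 give the authors' mean of each Numb transcript in secretory and maturation cells (left) and of each Dnm3 transcript in cervical loop and maturation cells (right), with 1 mean per stage and so no error bars. Numb-203 drops to 1.09 in maturation, and Dnm3-201 and Dnm3-202 move in opposite directions.

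Promoter sequence is shown for 3 genes as examples. Gga2 and Gak hold the motif marked by capitals and were highest in the secretory stage, and Synj1 lacks it and was highest in maturation. Each sequence is the 250 bases before the gene's start in RefSeq on build GRCr8, and lies outside the annotated gene. It runs 5′ to 3′ on the gene's strand. Capitals mark CACGTG, the E-box core of the CLEAR motif family that lysosomal genes often carry. The longer form TCACGTGA is in none of these windows. The windows are chr1:186016583-186016832 on the minus strand for Gga2, chr14:1234022-1234271 on the plus strand for Gak, and chr11:43755527-43755776 on the minus strand for Synj1.
Gga2: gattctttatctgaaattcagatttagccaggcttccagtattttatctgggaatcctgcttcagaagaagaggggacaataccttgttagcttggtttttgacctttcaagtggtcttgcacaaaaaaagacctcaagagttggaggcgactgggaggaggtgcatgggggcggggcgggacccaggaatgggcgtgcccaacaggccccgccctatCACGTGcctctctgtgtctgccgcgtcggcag
Gak: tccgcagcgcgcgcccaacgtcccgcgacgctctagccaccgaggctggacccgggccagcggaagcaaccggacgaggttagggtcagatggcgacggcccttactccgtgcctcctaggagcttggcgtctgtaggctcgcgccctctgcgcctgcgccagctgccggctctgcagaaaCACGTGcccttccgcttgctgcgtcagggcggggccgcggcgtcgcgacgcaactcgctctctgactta
Synj1: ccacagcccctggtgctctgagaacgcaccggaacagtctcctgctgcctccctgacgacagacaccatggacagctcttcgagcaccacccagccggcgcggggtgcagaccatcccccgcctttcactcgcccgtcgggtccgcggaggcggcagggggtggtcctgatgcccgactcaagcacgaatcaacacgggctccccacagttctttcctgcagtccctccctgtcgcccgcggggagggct

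The motif CACGTG, which reads the same on both strands, stands 32 bases before the start of Gga2 and 69 bases before that of Gak, and these letters are not in the Synj1 window. RefSeq windows matched 63 of the 66 genes and gave 68 windows. CACGTG was in 5 of the 68 (7.35%), those of Ap1s2, Eps15l1, Gak, Gga2 and Synj2bp. It was in 5.59% of all 33469 windows of the same length and in 7.44% of the 12372 windows of genes in the expression table, so its share in the clathrin machinery was that of the other measured genes. Of the other genes with a match, Ap1s2 and Synj2bp had their highest mean in maturation and Eps15l1 in the cervical loop. Numb and Necap1, also highest in the secretory stage, had no CACGTG in their windows. The longer palindrome TCACGTGA was in 0 of the 68 windows, against 0.657% of all windows and 1.25% of those of genes in the expression table. A match describes letters only.

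Beyond the coat genes themselves, 68 of 72 further genes of the pathway were measured, among them lipid kinases and phosphatases, arrestins, ubiquitin ligases and early endosome regulators. Into the secretory stage 22 rose and 7 fell, with a median log2 ratio of 0.20. From secretory to maturation 22 rose and 18 fell, with a median of 0.08, and from cervical loop to maturation 26 rose and 9 fell, with a median of 0.14. The backgrounds are those given above for each pair.

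Among the pathway genes named, the largest secretory change was in a lipid kinase gene of a family that makes the phosphoinositides that coat proteins bind. Pik3c2b, a class II PI 3-kinase, had means of 23.0, 188 and 16.8, and rose 8.21-fold and then fell by a factor of 11.2 (FDR = 0.000575 and FDR = 0.000280 in the authors' deposited table). Its relative Pik3c2a, a clathrin-binding kinase, had means of 72.6, 145 and 49.6. Pip5k1b, which makes PIP2, had means of 3.65, 20.2 and 10.02.

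Secretory peaks were also found outside the kinases. The AP-2 binding adaptor gene Ston2 had means of 24.7, 119 and 67.0, a rise of 4.82-fold and then a level still 2.71-fold above the cervical loop in maturation. The arrestin gene Arrb1 had means of 34.4, 73.8 and 34.0, and the ubiquitin ligase gene Cblb had means of 35.7, 106 and 46.8. Cd2ap, an adaptor to actin, had means of 25.3, 51.5 and 27.3, and Fnbp1l, a membrane-bending actin regulator, had means of 53.0, 81.5 and 38.6. Each of these 4 except Fnbp1l rose at least 2-fold into the secretory stage. Dnmbp, a scaffold that binds dynamin, had means of 8.13, 3.29 and 4.61 and fell by a factor of 2.47.

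The other pathway genes named by the rule, all but Cblc, had their highest mean in maturation. Rin1, an exchange factor for the GTPase Rab5, had means of 3.32, 2.03 and 16.3, and rose 8.03-fold from secretory cells (FDR = 0.000442 in the authors' deposited table). Rabgef1, another Rab5 exchange factor, had means of 9.93, 18.7 and 22.2. Tom1, an endosomal ubiquitin-binding adaptor, had means of 11.2, 13.1 and 39.6, a rise of 3.02-fold. Pacsin2, which bends membrane and binds dynamin, had means of 23.6, 36.5 and 61.7, and Pi4k2a, a lipid kinase of the trans-Golgi network and endosomes, had means of 11.1, 14.95 and 22.9. The ubiquitin ligase gene Cblc had means of 1.27, 0.357 and 0.270 and was 4.69-fold lower in maturation than in the cervical loop.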

How the data were processed

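RNA of the 3 cell populations was read as single-end reads of 75 bases, per the labels' protocols. The submitters' processing notes list STAR 2.5.3a, Partek and the build rn6; annotation, gene filter, normalisation and model terms: not given in the sources used here. Per the file headers, the authors deposited a p-value, an FDR and a ratio of least-squares means per gene for every pair of stages, and the same for 9949 transcripts with a p-value per gene for isoform make-up. The unit of the means is not stated, and reads counted per library are unknown, so no counting interval is given. The total column was 3.99, 3.99 and 5.01 times the stage means, from which 4, 4 and 5 libraries are inferred. The labels name 5 rats and 1 cervical loop library left out, so the secretory number of 4 is unexplained.

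Benjamini-Hochberg adjustment of the deposited p-values ran over every gene or transcript of a pair, with a threshold of 0.05, in Python 3.11.15 with pandas 2.3.3 and numpy 2.4.6; the script was tested on simulated data. Direction was the sign of the difference of the means. No fold was given against a mean of 0.1 or less. The members and lists were chosen with earlier results of these data known. Every coat gene was named, with its 3 means if it passed in a pair and reached a mean of 1, otherwise by name or range. Of the pathway genes, up to 8 per pair with the smallest p among those that passed with a fold of at least 2 were named. Means of Numbl, Ap2a1, Fcho1 and Synj2, which passed in no pair, of Ap3b2 and Amph, and of the pathway gene Hspa8 were added after their values were seen. Alternatives were a threshold of 0.01, a fold of at least 1.5, a pseudocount of 1, only genes with a mean of 1 or more, and scaling by the median ratio or the 75th percentile. Promoter windows came from RefSeq tables of GRCr8, matched by symbol; the 50 bases after the start were left out.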

Additional observations from a re-analysis of the deposited data

How the results depend on the processing

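At a threshold of 0.01, 3 of the machinery genes fell into the secretory stage and 4 were lower in maturation than in the cervical loop, and transcripts passed in 3, 6 and 10 cases for secretory against cervical loop, maturation against secretory and maturation against cervical loop. When a fold of 1.5 or more was also required, 18 genes rose into the secretory stage and 5 were lower in maturation than in the cervical loop. From secretory to maturation 13 then rose and 4 fell. Fewer genes pass by construction under either setting, and the shares among all genes are not given for them. With each stage divided by its median ratio, the medians against the cervical loop were 0.28 for secretory and 0.29 for maturation cells, because all genes have a median below 0 there. Counts under the other alternatives stayed within 1.5 times the main count, although genes lost their call: at 0.01, 22 genes rose into the secretory stage in place of 28. No value reversed. Scaling by 1 factor per stage leaves the deposited p-values as they are, so it is no check of the calls. With a pseudocount of 1, log2 ratios of low genes shrank: Amph to -0.78 and -0.66 against secretory and cervical loop, Dnajc6 to 2.41, Ap3b2 to -0.64 and Sh3gl3 to -0.74. No paired analysis was possible because each stage has 1 deposited mean, and for the same reason no replicate could be left out in turn. The depth behind a mean is unknown, so values near 0.1 carry the least weight.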
